A study of Mus musculus with 36 samples.

Results

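The 10 genes described here are core genes of the circadian clock, *Per1*, *Per2*, *Per3*, *Cry1*, *Cry2*, *Arntl*, *Clock*, *Nr1d1*, *Nr1d2* and *Dbp*. They were taken by name from the 24421 genes listed for each tissue, and all 10 passed the filter on low counts in both tissues. The clock is a transcriptional feedback loop that runs in most cells, including neurons and glia outside the brain's central pacemaker. ARNTL (also called BMAL1) and CLOCK together switch on the *Per* and *Cry* genes, and the PER and CRY proteins then block ARNTL and CLOCK. A second loop runs through *Nr1d1* and *Nr1d2*, whose products (REV-ERB proteins) repress *Arntl*, while DBP carries the rhythm to output genes through D-box sites. Transcript levels of these genes therefore depend on the time of day at which a tissue is taken, with *Arntl* near the opposite phase to *Dbp*, the *Nr1d* and the *Per* genes.

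Sequencing of poly(A) RNA covered the cerebellum and hippocampus of 18 adult C57Bl/6 mice, 3 males and 3 females of each genotype. *Pogz* encodes a zinc finger protein of chromatin. Control mice were *Pogz* fl/fl without Cre, cKO+/- mice carried NesCre/+ and Pogz fl/+, and cKO-/- mice carried NesCre/+ and *Pogz* fl/fl, with floxed alleles deleted in the nervous system by a *Nestin*-driven Cre. Each mutant carried the Cre transgene and no control did, so the effect of the transgene and that of the lost alleles cannot be told apart between controls and mutants. Mice were kept in a cycle of light and dark, but the hour of dissection of each animal is not given in the sources used here. Time of day was therefore not in any test below.

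Library totals over all genes ranged from 21421850 to 32544929 counts in the cerebellum and from 17609321 to 45544188 in the hippocampus. *Pogz*, the targeted gene, fell with each allele lost in both tissues, by 0.30 (SE 0.05, adjusted p = 0.000356) in the cerebellum and by 0.28 (SE 0.02, adjusted p = 1.79e-07) in the hippocampus on the log2 scale (edgeR's quasi-likelihood test, Benjamini-Hochberg adjustment). Only some exons of *Pogz* were floxed, and these counts cover the whole gene. The fall is therefore not a measure of how much of the deleted part remained. The 8 cerebellar markers summed to a median of 6950 CPM (counts scaled by the library's total) in control cerebellum and 169 in control hippocampus. The highest control hippocampus had 487. The 8 hippocampal markers summed to a median of 1171 CPM in control hippocampus and 227 in control cerebellum, so each tissue carried more of its own markers. Summed markers of the choroid plexus, the tissue that secretes cerebrospinal fluid, ranged from 9.69 to 3170 CPM in the cerebellum and from 18.6 to 4998 CPM in the hippocampus. The hippocampal library of Sample_1160, a cKO-/- female, lay outside the range of the other 17 for 73.9% of the genes tested, where each of the others did so for 1.64% to 17.4%, and was left out of the hippocampal results unless stated. Its clock genes, and the results that change with it, are described below. In bulk tissue, fewer cells of a type and less RNA per cell cannot be told apart.

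The 250 bases before the start of 4 of the genes are shown, because the comparisons below turn on *Per3* and *Dbp*, and because *Per1* and *Cry1* carry the sites of the loop. The sequences are from RefSeq (GRCm38.p6), in which 9 of the 10 genes matched and *Per2* did not, and each is printed on the strand of its gene. Capitals mark matches to an E-box (CACGTG, bound by ARNTL and CLOCK), an E-prime box (CACGTT, which reads AACGTG on the other strand) or a D-box (TTATGTAA, TTACGTAA or TTATGCAA, bound by DBP and its relatives).
Per3, chr4:151044666-151044915, minus strand: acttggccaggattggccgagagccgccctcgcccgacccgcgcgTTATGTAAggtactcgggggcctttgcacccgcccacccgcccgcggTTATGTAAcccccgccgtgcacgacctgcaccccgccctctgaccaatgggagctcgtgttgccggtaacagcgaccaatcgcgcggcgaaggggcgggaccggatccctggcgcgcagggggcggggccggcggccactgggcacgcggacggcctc
Dbp, chr7:45704997-45705246, plus strand: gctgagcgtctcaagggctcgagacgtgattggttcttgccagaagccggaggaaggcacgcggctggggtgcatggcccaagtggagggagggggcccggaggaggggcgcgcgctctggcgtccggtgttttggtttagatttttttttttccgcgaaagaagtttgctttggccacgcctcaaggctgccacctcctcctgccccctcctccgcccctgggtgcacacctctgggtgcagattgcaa
Per1, chr11:69098699-69098948, plus strand: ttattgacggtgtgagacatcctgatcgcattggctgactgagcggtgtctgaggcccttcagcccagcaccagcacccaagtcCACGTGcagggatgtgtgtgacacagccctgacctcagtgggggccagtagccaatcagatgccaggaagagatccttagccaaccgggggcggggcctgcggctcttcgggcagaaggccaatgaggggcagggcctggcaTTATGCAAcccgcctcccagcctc
Cry1, chr10:85185055-85185304, minus strand: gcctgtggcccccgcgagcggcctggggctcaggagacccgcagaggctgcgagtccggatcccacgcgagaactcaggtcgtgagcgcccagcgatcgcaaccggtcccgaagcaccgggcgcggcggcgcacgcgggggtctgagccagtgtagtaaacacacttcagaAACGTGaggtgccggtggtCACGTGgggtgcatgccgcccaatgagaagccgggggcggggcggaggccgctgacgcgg

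The *Per3* window held the D-box word TTATGTAA at 2 places, 205 and 158 bases before the start. A D-box word on either strand was in 1.61% of the 32817 windows of this length in the table. *Per1* held an E-box 166 bases and a D-box word, TTATGCAA, 24 bases before its start. *Cry1* held an E-box 60 bases and an E-prime box 79 bases before its start. An E-prime box also stood 166 bases before the start of *Cry2* and 28 bases before that of *Nr1d1*. E-boxes were in 6.02% and E-prime boxes in 3.85% of all windows. The windows of *Dbp*, *Arntl*, *Clock* and *Nr1d2* held none of these words, and no gene's window held the core of the element bound by ROR and REV-ERB proteins (TAGGTCA or TGGGTCA, in 5.39% of windows) or a cyclic AMP response element (TGACGTCA, in 1.55%). The marked matches within a window do not overlap each other. These matches describe letters only and do not show that a factor was bound.

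The first question was how strongly each clock gene is expressed in the unmutated tissues. In control cerebellum, levels per length of exon ran from *Nr1d1*, 90.5 ± 2.30 CPM per kb (SD, n = 6), to *Per2*, 10.1 ± 3.55. *Nr1d2* followed *Nr1d1* at 64.0 ± 4.75, then *Dbp* at 48.8 ± 3.94, *Cry2* at 36.2 ± 3.37, *Per1* at 25.6 ± 5.94 and *Cry1* at 21.6 ± 2.13. The activators *Arntl* (16.3 ± 1.12) and *Clock* (15.6 ± 1.94) were lower, and *Per3* (11.4 ± 2.82) stood beside *Per2*. The libraries of *Nr1d1* and *Nr1d2* did not overlap with each other or with any gene below them, and those of *Dbp* did not overlap with *Cry2*, nor those of *Cry1* with *Arntl*. The other neighbours in the order overlapped, *Cry2* with *Per1*, *Per1* with *Cry1*, *Arntl* with *Clock*, *Clock* with *Per3* and *Per3* with *Per2*.

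In control hippocampus *Nr1d1* was again the highest, at 90.9 ± 5.74 CPM per kb (n = 6), and *Cry1* was the lowest, at 5.10 ± 0.72. *Cry2* stood at 38.1 ± 2.63, *Dbp* at 34.5 ± 6.83, *Nr1d2* at 24.8 ± 2.30, *Per1* at 21.4 ± 4.20 and *Per3* at 13.1 ± 0.94. *Clock* (11.6 ± 0.94), *Arntl* (11.4 ± 1.33) and *Per2* (10.3 ± 1.94) followed. *Cry2* overlapped with *Dbp*, *Nr1d2* with *Per1*, and *Per3*, *Clock*, *Arntl* and *Per2* with each other. The plot of control levels shows that *Cry1* and *Nr1d2* were the members whose levels were most unlike between the tissues.

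**Figure D1:**
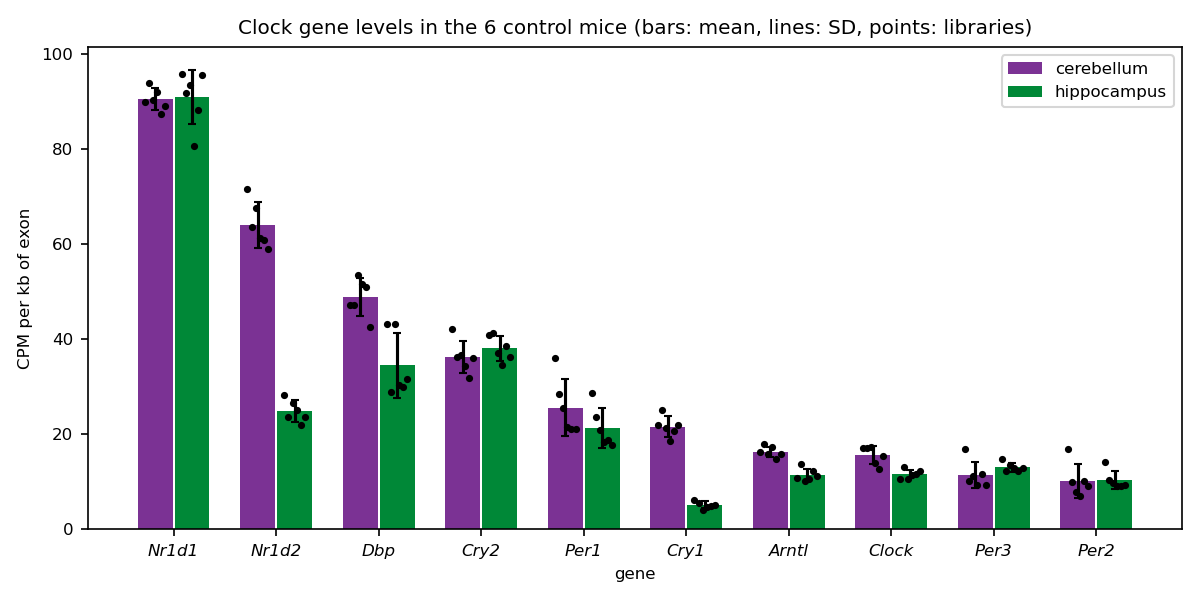
Levels of the 10 clock genes in control mice, in CPM per kb of exon (vertical axis), by gene (horizontal axis) and tissue (colour); bars are means, lines SDs and points the 6 libraries. *Nr1d1* is the highest in both tissues, at 90.5 and 90.9, and *Cry1* stands at 21.6 in the cerebellum and 5.10 in the hippocampus.

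Between the tissues of the 6 controls, 6 of the 10 clock genes differed (edgeR's quasi-likelihood test, FDR under 0.05), against 71.9% of the 14224 genes tested, so the share was near the background. *Cry1*, a repressor of the loop, had 55.9, 65.1 and 75.6 CPM (lowest, median and highest) in the cerebellum and 12.3, 15.05 and 18.6 in the hippocampus. These did not overlap, and the hippocampus was lower by a log2 difference of -1.99 (SE 0.10, adjusted p = 4.53e-10). *Nr1d2* had 273.9, 289.8 and 332 CPM in the cerebellum and 101.3, 113 and 130.9 in the hippocampus, also without overlap, with a log2 difference of -1.28 (SE 0.06, adjusted p = 1.55e-10). Its relative *Nr1d1* differed by 0.10 (SE 0.05, adjusted p = 0.121), which did not pass. *Arntl* (-0.43, SE 0.07, adjusted p = 0.000176), *Dbp* (-0.42, SE 0.09, adjusted p = 0.000871) and *Clock* (-0.34, SE 0.09, adjusted p = 0.00412) were lower in the hippocampus, and *Per3* was higher (0.29, SE 0.12, adjusted p = 0.0355). Control libraries of *Arntl* did not overlap either, at 14.7 to 17.9 CPM per kb in the cerebellum and 10.1 to 13.7 in the hippocampus. The share of all genes without overlap between the tissues was not counted.

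*Per1* (-0.17, SE 0.14, adjusted p = 0.313), *Per2* (0.11, SE 0.19, adjusted p = 0.610) and *Cry2* (0.17, SE 0.07, adjusted p = 0.0513) did not pass without the pairing of the tissues. With the animal as a replicate block, *Per1* (-0.16, SE 0.05, adjusted p = 0.0113) and *Cry2* (0.17, SE 0.06, adjusted p = 0.0294) passed too, which made 8 of 10. Without Sample_1155 the unblocked test called 5 clock genes, and without Sample_1129 it called 8. *Cry1*, *Nr1d2*, *Arntl*, *Dbp* and *Clock* were called whichever of the 6 controls was left out.

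The second question was what the loss of *Pogz* alleles does to the clock genes. In the cerebellum, *Per3* was the single member that passed, and it was lower with each allele lost. Of the 10 genes, 8 had negative and 2 had positive changes, with a median of -0.09 on the log2 scale per allele against 0.00 over all genes. *Per3* alone, 1 of 10, passed at an FDR of 0.05, against 13.7% of all 14027 genes tested in either direction and 6.55% in the negative direction. At an unadjusted p under 0.05 the members were 5 of 10, against 30.2% of all genes. The count of members called was thus near the background.

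*Per3*, a period gene on chromosome 4 (GRCm38, 151003655 to 151044665, minus strand) whose 2 D-box words are printed above, had 56.1, 64.1 and 102 CPM in the cerebellum of controls (lowest, median and highest of 6). In cKO+/- mice it had 38.3, 56.4 and 84.5 CPM, and in cKO-/- mice 36.3, 43.6 and 54.1. Each cKO-/- library lay below each control library, by a narrow gap, and cKO+/- libraries overlapped with both other groups. Over all genes, 1.9% had every cKO-/- library below every control in the cerebellum. The change per allele lost was -0.31 (SE 0.08, adjusted p = 0.0200).

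The other period genes had wide spreads. *Per2*, a repressor of the loop, had 40.3, 55.3 and 99.0 CPM in controls, 29.1, 48.6 and 63.2 in cKO+/- and 26.8, 32.2 and 59.3 in cKO-/- cerebella. The groups overlapped, and the change of -0.34 (SE 0.11, adjusted p = 0.0538) did not pass, although its size was like that of *Per3*. *Per1*, a period gene that outside signals such as light also induce, had 98.5, 110.2 and 169 CPM in controls, 72.1, 91.8 and 104 in cKO+/- and 67.0, 111 and 135 in cKO-/- cerebella, with a change of -0.08 (SE 0.08, adjusted p = 0.533). With the genotypes as a factor, *Per1* was lower in cKO+/- than in control cerebella at an unadjusted level only, by -0.43 (SE 0.15, adjusted p = 0.332).

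The REV-ERB genes, *Dbp* and the activators changed by small amounts in the cerebellum. *Nr1d2* had a change of -0.12 (SE 0.04, adjusted p = 0.0604), *Nr1d1* of -0.10 (SE 0.04, adjusted p = 0.0976) and *Dbp* of -0.11 (SE 0.05, adjusted p = 0.124). *Cry2* (-0.07, adjusted p = 0.182) and *Cry1* (-0.03, adjusted p = 0.765), the cryptochrome repressors, did not pass either. *Arntl* (0.09, SE 0.05, adjusted p = 0.279) and *Clock* (0.06, SE 0.05, adjusted p = 0.384) had the 2 positive values. Control and cKO-/- libraries overlapped for all 9 members other than *Per3*.

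In the hippocampus, *Per3* and *Dbp* fell with each allele lost. Here 2 of 10 members passed, against 4.44% of all 14339 genes in either direction and 2.35% in the negative direction. Again 8 values were negative and 2 positive, with a median of -0.08 against 0.00 over all genes. Members with an unadjusted p under 0.05 were 5 of 10, against 20.1% of all genes.

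Hippocampal *Per3* had 73.6, 77.8 and 88.7 CPM in the 6 controls and 49.9, 69.4 and 89.8 in the 6 cKO+/- mice. The 5 cKO-/- libraries had 55.3 (Sample_936), 51.8 (Sample_1219), 40.4 (Sample_1371), 45.4 (Sample_1379) and 34.5 CPM (Sample_1385). All 5 lay below the lowest control, with a wider gap than in the cerebellum. The change was -0.38 per allele (SE 0.08, adjusted p = 0.00721), and cKO-/- mice differed from controls by -0.78 (SE 0.14, adjusted p = 0.00386) with the genotypes as a factor.

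*Dbp*, the D-box activator whose rhythm is among the steepest of clock outputs, lies on chromosome 7 (45705247 to 45710203, plus strand). Its hippocampal level was 48.4, 51.8 and 72.6 CPM in controls and 37.9, 46.2 and 64.0 in cKO+/- mice. The cKO-/- libraries had 45.1 (Sample_936), 42.7 (Sample_1219), 22.8 (Sample_1371), 38.5 (Sample_1379) and 25.5 CPM (Sample_1385). They lay below the controls without overlap, as did those of 2.12% of all genes, and the change was -0.34 (SE 0.09, adjusted p = 0.0422). This call depended on the omission of Sample_1160, since with all 18 libraries the change was -0.15 (SE 0.13, adjusted p = 0.530). *Dbp* shares 539 exon bases with *Sphk2* on the opposite strand, and the use of strand in counting was not stated, so reads of the pair cannot be told apart there. *Sphk2* had a change of 0.04 (SE 0.03, adjusted p = 0.441) in the hippocampus.

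Among the other members in the hippocampus, *Per2* had a change of -0.18 (SE 0.07, adjusted p = 0.139), *Nr1d2* of -0.12 (SE 0.05, adjusted p = 0.168) and *Cry1* of -0.10 (SE 0.04, adjusted p = 0.177). *Per1* (-0.06, adjusted p = 0.595), *Cry2* (-0.02, adjusted p = 0.716) and *Nr1d1* (-0.01, adjusted p = 0.864) were near 0. The activators were again the 2 positive values, *Arntl* at 0.08 (SE 0.05, adjusted p = 0.390) and *Clock* at 0.03 (SE 0.03, adjusted p = 0.685). The counts of *Cry2* carry a doubt like those of *Dbp*, since it shares 149 exon bases with D930015M05Rik on the opposite strand.

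**Figure D2:**
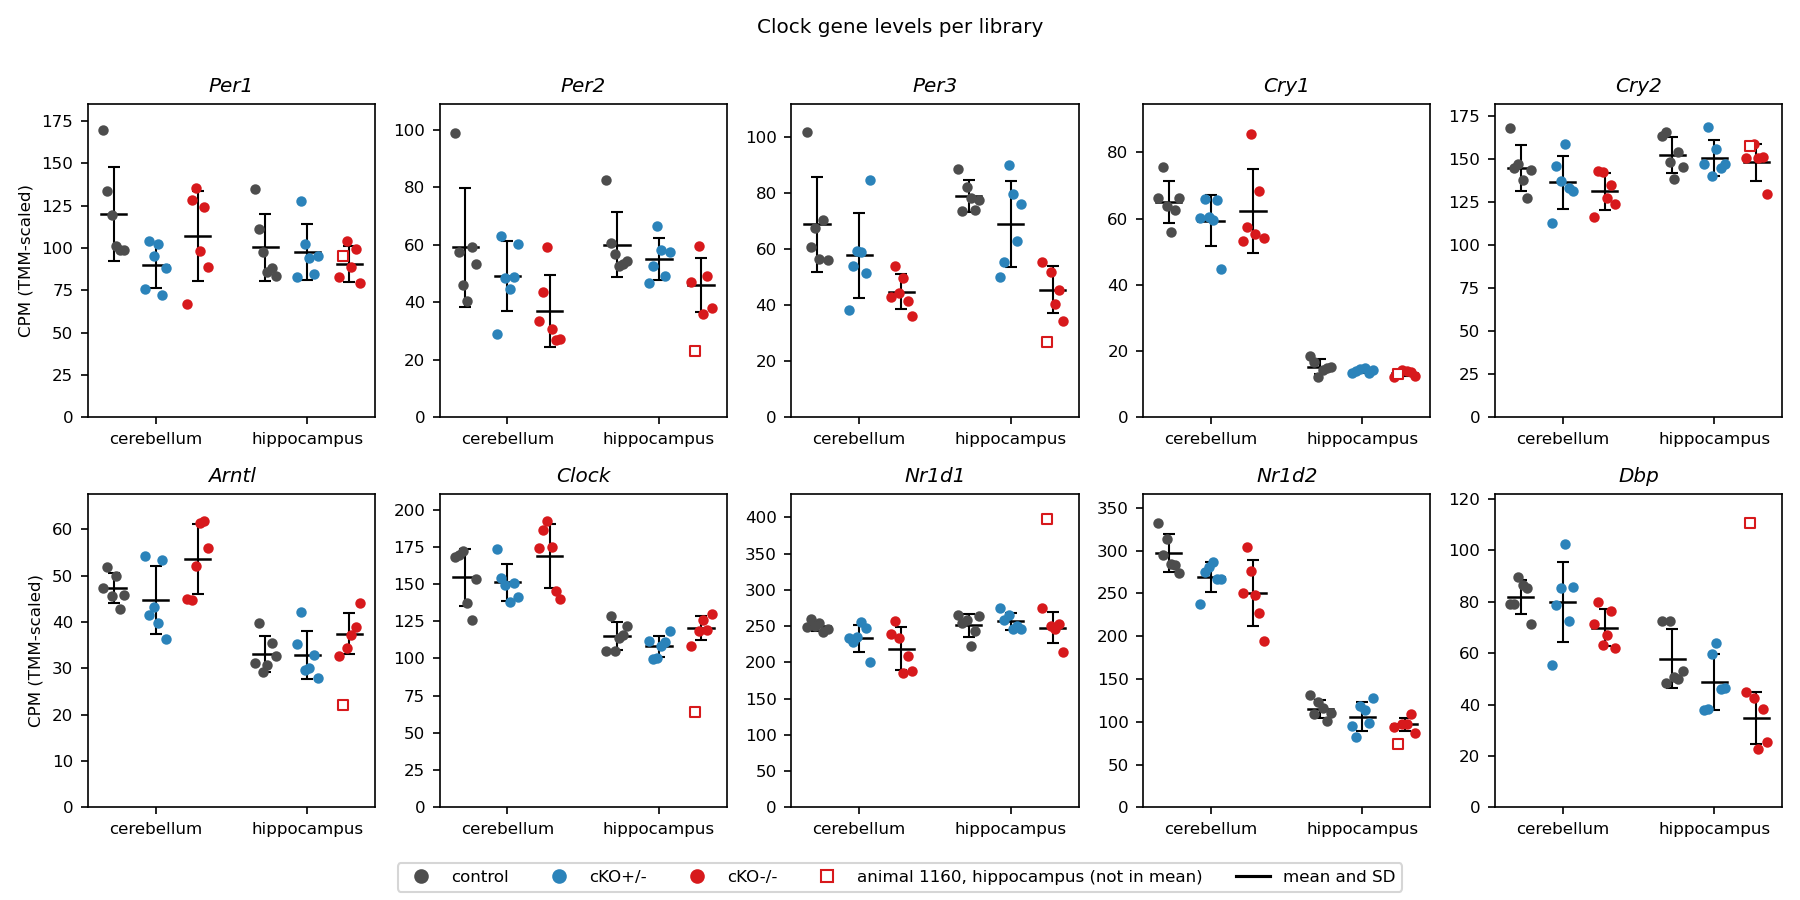
CPM of the 10 clock genes in each library (vertical axis, from 0), by tissue (horizontal axis) and genotype (colour); lines are group means with SDs, and the open square is the hippocampal library of Sample_1160, which is not in the mean. *Per3* in cKO-/- mice lies below all controls in both tissues, and the open square is at 111 CPM for *Dbp* and at 26.8 CPM for *Per3*.

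No clock gene passed an FDR of 0.05 between cKO+/- mice and controls. With the genotypes as a factor, cKO+/- against control called 0 of 10 members in each tissue, against 0.342% of cerebellar and 0.0349% of hippocampal genes. At an unadjusted p under 0.05 it called *Per1* in the cerebellum and no member in the hippocampus. *Per3* was -0.25 (SE 0.17, adjusted p = 0.559) in the cerebellum and -0.20 (SE 0.13, adjusted p = 0.678) in the hippocampus. The cKO-/- against control contrast called *Per3* in both tissues (-0.62, SE 0.17, adjusted p = 0.0235 in the cerebellum) and *Dbp* in the hippocampus (-0.69, SE 0.19, adjusted p = 0.0405), with 12.7% and 4.87% of all genes called.

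The changes in the tissues were then compared by an interaction term. No clock gene passed, 0 of 10 against 1.49% of 13587 genes. *Dbp* had the largest difference, with a more negative change in the hippocampus by -0.23 (SE 0.11, unadjusted p = 0.0356, adjusted p = 0.320), and was the single member under 0.05 before adjustment, against 13.6% of all genes. For *Per3* the difference was -0.08 (SE 0.12, adjusted p = 0.816) and for *Per2* 0.15 (SE 0.14, adjusted p = 0.699). That *Dbp* passed in the hippocampus and not in the cerebellum is therefore not shown to be a difference between the tissues. The replicate block left the count of members at 0, with *Dbp* at -0.25 (SE 0.09, adjusted p = 0.124). DESeq2 also called no member.

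**Figure D3:**
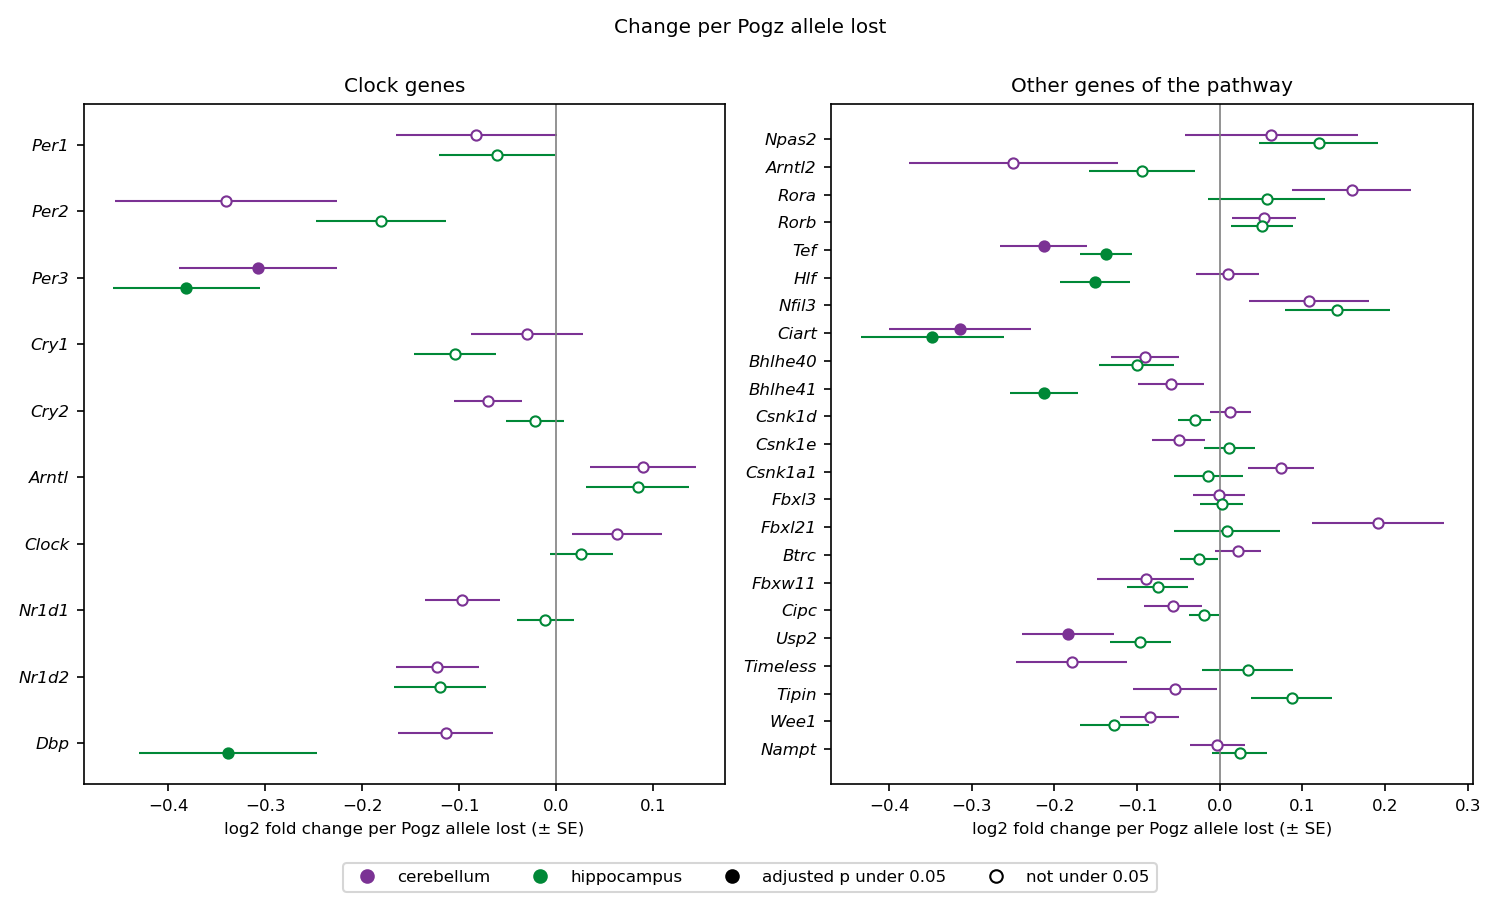
Log2 fold change per *Pogz* allele lost with its SE (horizontal axis) for the 10 clock genes (left) and 23 other genes of the pathway (right), by tissue (colour); filled points passed an FDR of 0.05. *Per3* is filled in both tissues and *Dbp* in the hippocampus, at -0.34; on the right, *Ciart* is filled in both tissues, at -0.31 in the cerebellum and -0.35 in the hippocampus.

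The calls of *Per3* in both tissues and of *Dbp* in the hippocampus did not hold once the animals' numbers were taken into account. The animals labelled Sample_1120 to Sample_1219 hold all 6 controls, 3 cKO+/- and 2 cKO-/- mice, while 3 cKO+/- and 4 cKO-/- mice have numbers outside this range. What the numbers stand for is not given in the sources used here. In the hippocampus the range held 1 cKO-/- library, that of Sample_1219, since the other was that of Sample_1160. Within the range alone, *Per3* was -0.26 (SE 0.08, adjusted p = 0.149) in the cerebellum and -0.18 (SE 0.06, adjusted p = 0.412) in the hippocampus, and hippocampal *Dbp* was -0.11 (SE 0.07, adjusted p = 0.808). With a covariate for the range in the fit, *Per3* was -0.30 (SE 0.10, adjusted p = 0.164) and -0.27 (SE 0.09, adjusted p = 0.408), and *Dbp* -0.19 (SE 0.11, adjusted p = 0.848). No member was called in either fit, and the covariate fit called 2.2% of cerebellar and 0.474% of hippocampal genes.

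The covariate's own coefficient, animals outside minus animals inside the range, called no clock gene in either tissue, against 9.2% of cerebellar and 0 of all hippocampal genes. It was -0.40 (SE 0.17, unadjusted p = 0.0333, adjusted p = 0.9999) for hippocampal *Dbp* and -0.20 (SE 0.06, adjusted p = 0.0597) for cerebellar *Nr1d1*. Leaving out animals 1 at a time, *Per3* in the hippocampus passed in all 17 fits, from -0.41 to -0.32, with a largest adjusted p of 0.0292. Cerebellar *Per3* no longer passed without control Sample_1129 (-0.24, adjusted p = 0.0581) or cKO-/- Sample_1385 (-0.27, adjusted p = 0.0557). Hippocampal *Dbp* no longer passed in 10 of 17 such fits, over a range of -0.39 to -0.27.

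Among other genes of the pathway, some fell and none rose. In the cerebellum, 3 of 23 tested passed in the negative direction, with a median of -0.05 against 0.00 over all genes. These were *Ciart* (-0.31, SE 0.09, adjusted p = 0.0229), a repressor of ARNTL and CLOCK, *Tef* (-0.21, SE 0.05, adjusted p = 0.0137), a relative of *Dbp*, and *Usp2* (-0.18, SE 0.06, adjusted p = 0.0357), a deubiquitinase. In the hippocampus, 4 of the 23 were called, again in the negative direction, with a median of -0.02. They were *Ciart* (-0.35, SE 0.09, adjusted p = 0.0264), *Bhlhe41* (-0.21, SE 0.04, adjusted p = 0.00587), a repressor at E-boxes, *Hlf* (-0.15, SE 0.04, adjusted p = 0.0485) and *Tef* (-0.14, SE 0.03, adjusted p = 0.0191). *Hlf* and *Tef* belong with *Dbp* to the family that activates through D-boxes. *Nfil3*, which represses through the same site, was 0.14 (SE 0.06, adjusted p = 0.221) in the hippocampus. In the cerebellum *Hlf* was 0.01 (SE 0.04, adjusted p = 0.896) and *Nfil3* was 0.11 (SE 0.07, adjusted p = 0.333), and neither passed. The list's share called in the negative direction was 3 of 23 in the cerebellum and 4 of 23 in the hippocampus, beside 6.55% and 2.35% of all genes.

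Genes that respond to glucocorticoids, whose daily surge also acts on clock genes, moved with genotype too. In the cerebellum, 6 of 9 passed in the negative direction and none in the positive, with a median of -0.35, beside 6.55% of all genes in the negative direction, among them *Hif3a* (-0.91, SE 0.15, adjusted p = 0.000552) and *Tsc22d3* (-0.23, SE 0.04, adjusted p = 0.00217). In the hippocampus, 7 of 9 did, beside 2.35% of all genes, with a median of -0.28, among them *Fkbp5* (-0.42, SE 0.06, adjusted p = 0.000373) and *Tsc22d3* (-0.28, SE 0.06, adjusted p = 0.0152). Activity-induced genes had 2 of 8 called in the positive direction in the cerebellum, *Fos* and *Fosb*, beside 7.11% of all genes, and 0 of 9 in the hippocampus, beside 2.09%. Temperature-responsive genes had 0 of 8 called in the cerebellum, and 1 in the positive (*Hsp90aa1*) and 2 in the negative direction (*Hspa1a* and *Hspa1b*) in the hippocampus, beside 13.7% and 4.44% of all genes in either direction. The part of hormones, activity or temperature in the clock gene values was not tested. Values of these lists, of the pathway genes above and of the markers below are from the fits without the covariate for the range of numbers. With that covariate, the genes called fell from 1916 to 308 in the cerebellum and from 636 to 68 in the hippocampus.

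Cell type markers moved as well. In the cerebellum, 3 of 5 astrocyte, 1 of 5 oligodendrocyte and 2 of 5 microglial markers passed in the positive direction, beside 7.11% of all genes, and their summed levels had medians of 2771, 4739 and 78.9 CPM in controls and 3092, 6006 and 99.7 CPM in cKO-/- mice. Of the 4 hippocampal markers tested there, 2 also passed in the positive direction (*Wfs1* and *Neurod6*), and 1 of 5 endothelial markers, *Ly6c1* (-0.30, SE 0.08, adjusted p = 0.0202), passed in the negative. In the hippocampus, 1 of 5 astrocyte and 1 of 5 endothelial markers passed in the positive direction, beside 2.09% of all genes, and 2 of 8 hippocampal markers in the negative direction, beside 2.35%. Of the 7 choroid plexus markers, 3 could be tested in the cerebellum and 5 in the hippocampus. All of these had positive changes per allele lost, and 0 passed. Of the 4 blood markers, 3 were at 0 in all libraries of each tissue. The part of cell composition in the clock gene values was not tested.

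No clock gene passed an FDR of 0.05 between males and females in either tissue. The count was 0 of 10 against 0.0499% of cerebellar and 0.907% of hippocampal genes. At an unadjusted p under 0.05, *Cry2* (0.14, SE 0.06, females minus males) and *Dbp* (0.18, SE 0.08) were the 2 members in the cerebellum, against 3.39% of genes, and there was none in the hippocampus, against 16.1%.

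The spread between animals that remained after terms for sex and alleles lost was widest for the period genes and for hippocampal *Dbp*. This residual SD of log2 CPM was 0.43 for *Per2* in the cerebellum, above that of 92.0% of genes tested, and 0.24 in the hippocampus (78.0%). For *Per1* it was 0.32 (82.3%) and 0.21 (73.1%), and for *Per3* 0.30 (79.4%) and 0.27 (82.8%). Hippocampal *Dbp* had 0.34 (90.0%) and cerebellar *Dbp* 0.18 (48.3%). The activators had less spread than the period genes, with *Arntl* at 0.21 (58.8%, cerebellum) and 0.19 (68.1%, hippocampus) and *Clock* at 0.17 (44.7%) and 0.11 (31.8%). Among genes of like level, *Arntl* lay above 79.9% and 84.0%, and *Per1* above 96.7% and 94.6%. The median over all genes was 0.18 in the cerebellum and 0.14 in the hippocampus, and *Cry2* (0.12 and 0.10) and *Nr1d1* (0.13 and 0.10) lay below it in both.

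Since each animal gave both tissues, the deviation of each gene from its genotype mean was compared between the tissues of 17 animals. For *Per1* the correlation was the closest of the 10 genes. Pearson's r was 0.849 (permutation p = 2e-05, two-sided) and Spearman's rho was 0.850 (permutation p = 7e-05). An r at least as high was found in 0.177% of the 13587 genes tested in both tissues, whose median was 0.154. The median of the members was 0.424. These p-values were not adjusted for the 10 genes examined. Sex was not removed from the deviations. *Per1* was higher in females by 0.25 (SE 0.14) in the cerebellum and 0.16 (SE 0.10) in the hippocampus, and neither passed. The part of sex in the correlations was not tested.

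The levels of *Per1* show this directly. Among controls, Sample_1129 had the most *Per1* in both tissues, 169 CPM in the cerebellum and 135 in the hippocampus, and Sample_1155 was next in both, at 134 and 111. The other 4 controls ran from 98.5 to 119 CPM (cerebellum) and from 83.6 to 97.8 CPM (hippocampus). The relation did not rest on 1 animal. Without the 2 animals farthest from the cerebellar median, r was 0.877 (permutation p = 8e-05), and leaving out 1 animal at a time gave r between 0.796 and 0.919. Within the animals Sample_1120 to Sample_1219, r was 0.948 (n = 10, exact p = 0.00231), and within the other 7 it was 0.727 (exact p = 0.0417).

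*Per2* had an r of 0.709 (permutation p = 0.00594; rho 0.554, p = 0.0295), which 1.90% of genes reached. Without the 2 farthest animals it was 0.663 (permutation p = 0.0332), and without Sample_1129 it was 0.579 (permutation p = 0.0608). Within the range of numbers it was 0.770 (exact p = 0.0512), and outside it 0.409 (exact p = 0.326). *Per3* had an r of 0.566 (permutation p = 0.0196; rho 0.583, p = 0.0177) and *Dbp* one of 0.499 (permutation p = 0.0379; rho 0.537, p = 0.0407). Without the 2 farthest animals neither passed. *Per3* then had an r of 0.509 (permutation p = 0.190), near its value over all 17, and *Dbp* a lower one of 0.336 (permutation p = 0.265). Within and outside the range, r was 0.556 (exact p = 0.0278) and 0.703 (exact p = 0.118) for *Per3*, and 0.497 (exact p = 0.187) and 0.468 (exact p = 0.125) for *Dbp*.

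The other 6 genes had no Pearson correlation that passed. It was 0.449 for *Cry2*, 0.399 for *Arntl*, 0.393 for *Nr1d1*, 0.374 for *Nr1d2* and 0.309 for *Cry1*. *Clock* had the single negative value, -0.236 (permutation p = 0.406), and 90.0% of genes had a higher one. The plot of deviations shows the same order, with points near a rising line for *Per1* and no line for *Clock*.

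**Figure D4:**
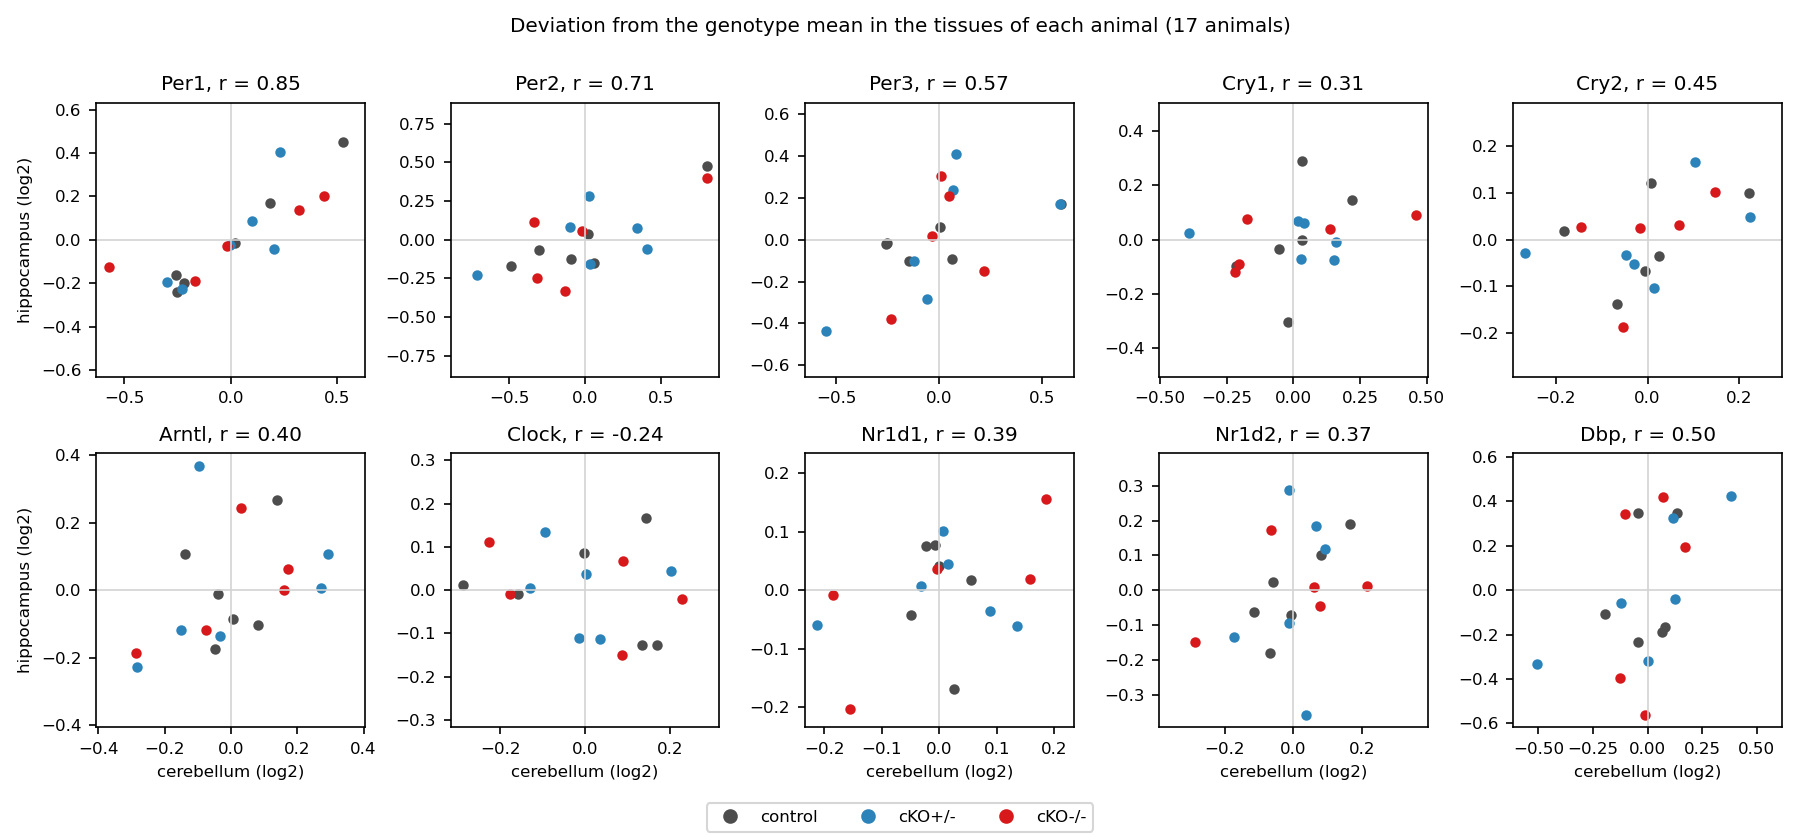
Deviation of log2 CPM from the genotype mean in the cerebellum (horizontal axis) and the hippocampus (vertical axis) of 17 animals, by gene and genotype (colour). *Per1* has r = 0.849 and *Per2* 0.709, while *Clock* has -0.236.

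Within a tissue, pairs of clock genes were compared across the same 17 animals, again as deviations from genotype means. An r of 0.5 or more was found for 12 of 45 pairs in the cerebellum and 10 in the hippocampus, beside 9.91% and 9.06% of all pairs of genes tested, and one of -0.5 or less for 2 and 4 pairs, beside 8.85% and 8.49%. The counts at -0.5 or less were thus near or below the share over all pairs. Of the 45 pairs, 8 had an unadjusted permutation p under 0.05 in the cerebellum, 1 of them negative, and 14 had one in the hippocampus, 4 of them negative. The share of all pairs of genes under this p was not computed. Values of a pair come from the same libraries, and the pairs are not independent of each other. In the hippocampus, *Per3* and *Dbp* had r = 0.845 (permutation p = 5e-05; rho 0.885), *Per2* and *Dbp* 0.769 (permutation p = 0.00163) and *Per2* and *Per3* 0.728 (permutation p = 0.00087). *Arntl*, of opposite phase in the cycle, had r = -0.780 with *Per3* (permutation p = 0.00079; rho -0.841). The hippocampal cKO-/- libraries show this pair: Sample_936 had the most *Per3* (55.3 CPM) and the least *Arntl* (32.8), and Sample_1385 the least *Per3* (34.5) and the most *Arntl* (44.1). Without the 2 farthest animals the values were 0.834 for *Per3* with *Dbp* and -0.745 for *Per3* with *Arntl*. *Arntl* also had r = -0.763 with *Nr1d2* (permutation p = 0.00145) and -0.667 with *Dbp* (permutation p = 0.00576). Its r with *Per2* (-0.387), *Nr1d1* (-0.186) and *Per1* (0.168) did not pass.

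In the cerebellum, *Per3* with *Arntl* had r = -0.501 (permutation p = 0.0555) and *Per2* with *Dbp* 0.136 (permutation p = 0.613), neither of which passed. *Arntl* had -0.530 with *Dbp*, -0.438 with *Per2*, -0.337 with *Nr1d2*, -0.046 with *Nr1d1* and 0.038 with *Per1*, and none of these passed. *Per2* with *Per3* had 0.689 (permutation p = 0.00480), and 0.561 (permutation p = 0.0587) without the 2 farthest animals. *Per1* and *Cry2*, whose products act in the same repressor complexes, were correlated in both tissues, with r = 0.813 (permutation p = 5e-05) in the cerebellum and 0.737 (permutation p = 0.00144) in the hippocampus. Without the 2 farthest animals these were 0.738 and 0.611. Differences between the tissues in these correlations were not tested.

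**Figure D5:**
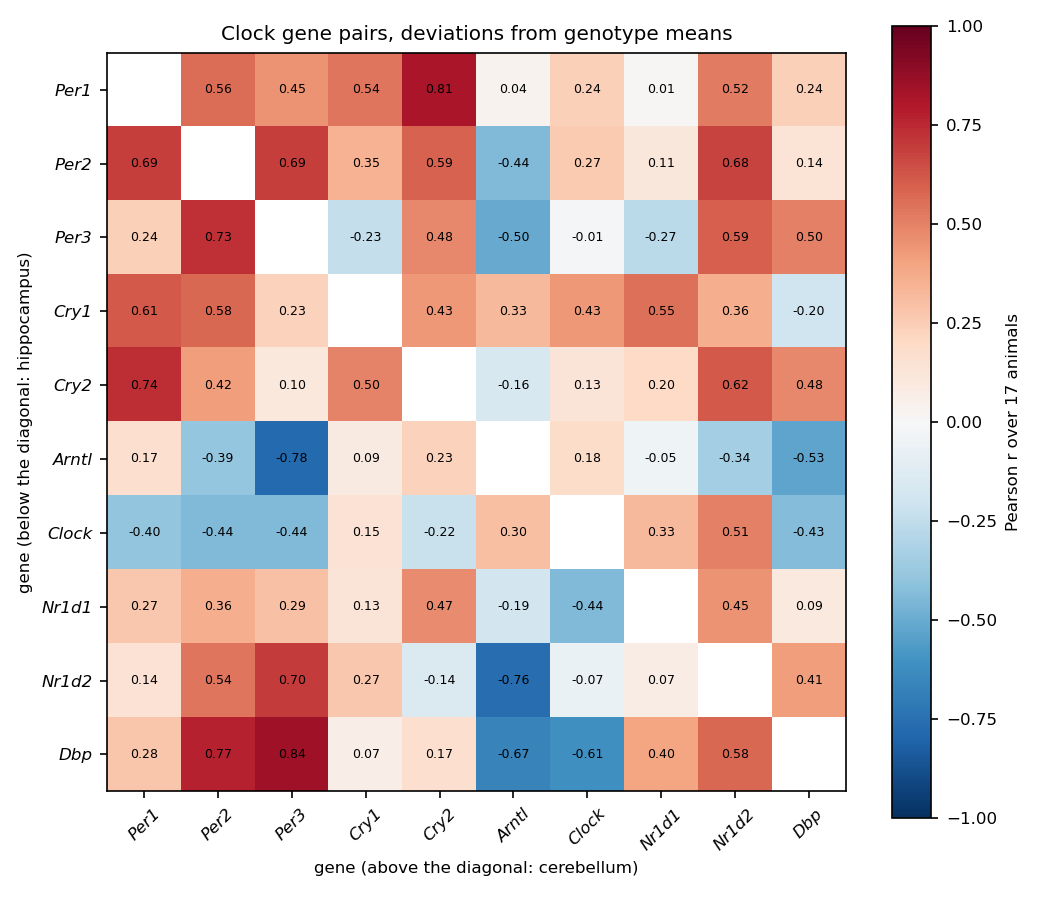
Pearson's r between the deviations of clock gene pairs over 17 animals, in the cerebellum (above the diagonal) and the hippocampus (below it), from -1 (blue) to 1 (red). In the hippocampus, *Arntl* with *Per3* reaches -0.780 and *Dbp* with *Per3* 0.845.

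The level of *Arntl* in an animal's other tissue was also used as a predictor in a fit over all genes. With cerebellar *Arntl*, no hippocampal gene of 14339 passed (edgeR, FDR under 0.05), and DESeq2 called 2. The count turned on 1 animal, since 575 genes passed without cKO+/- Sample_1433, none of them a clock gene. At an unadjusted p under 0.05 were 8.11% of hippocampal genes and 3 members, *Per3* (-0.83 log2 per log2 of *Arntl*, SE 0.24), *Dbp* (-0.77, SE 0.35) and *Clock* (0.27, SE 0.13). With hippocampal *Arntl*, no cerebellar gene passed in edgeR, DESeq2 called 3, and 5.03% of genes and 1 member, *Per3* (-0.79, SE 0.35), were under 0.05 before adjustment. The hippocampal genes closest to cerebellar *Arntl* were *Fgf1* (0.53), 1810041L15Rik (0.45) and *Hacd4* (0.89) in the same direction and *Recql5* (-0.48), *Tsc2* (-0.37) and *Gm10857* (-1.54) in the opposite one, each with an adjusted p of 0.607. The cerebellar genes closest to hippocampal *Arntl* were A930005H10Rik (1.81), *Ube2f* (0.60) and *Shh* (0.98), and *Phtf1* (-1.17), *Lrrc23* (-1.52) and *Plin4* (-2.23) in the opposite direction, each with an adjusted p of 0.927. *Arntl* itself had a coefficient of 0.42 (SE 0.21) and 0.53 (SE 0.26) between the tissues.

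The hippocampal library of Sample_1160 stood outside the range of the other 17 hippocampal libraries for 7 of the 10 clock genes, near the 73.9% of all genes. *Dbp* was at 111 CPM, where the others ran from 22.8 to 72.6, and *Nr1d1* was at 397 CPM, where they ran from 215 to 275. Both were above the whole range. *Clock* (64.0 against 99.9 to 129.7 CPM), *Arntl* (22.1 against 27.9 to 44.1), *Per2* (23.0 against 36.0 to 82.4), *Per3* (26.8 against 34.5 to 89.8) and *Nr1d2* (74.0 against 81.7 to 130.9) lay below all others. *Per1*, *Cry1* and *Cry2* were within the range. The cerebellar library of the same animal was within the range of the other 17 for all 10 genes, and outside it for 10.6% of all genes, with *Dbp* at 79.9 CPM and *Per3* at 54.1. With this library in the fit, hippocampal *Per3* was -0.45 (SE 0.09, adjusted p = 0.0126) and *Dbp* was -0.15 (SE 0.13, adjusted p = 0.530), and r between the tissues was 0.355 (permutation p = 0.195) for *Per2* and 0.291 (permutation p = 0.250) for *Per3*. For *Dbp* it was 0.516 (permutation p = 0.00669), and for *Nr1d1*, which had not passed without this library, 0.617 (permutation p = 0.0326).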

How the data were processed

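STAR was used by the authors to align reads of poly(A) libraries (version 250a in the submitters' processing notes), and they deposited whole-number read counts per gene without normalization, 1 table a tissue. The methods name mm9, whereas the coordinates in the tables are those of GRCm38. The handling of strand and of reads on several genes is not given in the sources used here. Each library of a group came from another animal, and genotype, sex, tissue and animal number were read from the labels.

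CPM values were derived with TMM factors in edgeR 4.0.16 (R 4.3.3). A gene was tested if it exceeded 1 CPM in 6 or more libraries of a tissue. The edgeR quasi-likelihood F-test (legacy=TRUE) held terms for sex and alleles lost, with Benjamini-Hochberg adjustment over all genes tested at an FDR of 0.05, and signs are per allele lost. Hippocampal fits omitted the library of Sample_1160, while the filter and TMM factors used all 18 libraries. The study's reporting summary mentions the exclusion of an RNA sample as an outlier, without naming it. That Sample_1160 is this sample was inferred, with earlier fits of these data and the study's statistics in view. Correlations used log2 CPM (prior count 2) minus genotype means, with 100000 permutations within genotypes, exact enumeration for the ranges of animal numbers, and 20000 permutations with 1 animal left out. All were two-sided. That libraries pair across tissues follows from the animal number in the titles. Over all genes the median r between an animal's tissues was 0.154. The other settings were DESeq2 1.42.0, size factors by relative log expression, no low-count filter, other sets of animals and covariates, the animal as a replicate block and the omission of single animals. The 10 genes, the lists of pathway, responsive and marker genes and the range of numbers were chosen with earlier results of these data known. Genes named beside the 10 are those called in these lists, genes that share exon bases with them, *Nfil3*, chosen after its value was seen, and the 3 with the smallest p in each direction against *Arntl*. On simulated data with 200 changed genes, the allele tests called 95% in the cerebellum (14027 genes) and 97.5% in the hippocampus (14339 genes). The share called among genes with changes as small as those of the clock genes was not tested. From the pathway list, 1 gene is not reported here, and the list's counts and medians leave it out. Exon-level reads, quantitative PCR and protein data were not analysed here.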

Additional observations from a re-analysis of the deposited data

Results flagged for a closer look

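Of 60 groups of libraries (10 genes, 2 tissues, 3 genotypes), 5 held a library whose gap to the next was larger than Dixon's 95% limit, and chance gives about 1 in 20. In 3 of them the library was the highest control and came from Sample_1129. Its *Per2* level was 99.0 CPM in the cerebellum (next 59.1) and 82.4 CPM in the hippocampus (next 60.7), and its cerebellar *Per3* level was 102 CPM (next 70.2). The cKO+/- Sample_1433 had the lowest cerebellar *Cry1* of its group, 44.9 CPM (next 59.6). The cKO-/- Sample_1385 had the lowest hippocampal *Cry2* of its group, 129.9 CPM (next 150.4).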

How the results depend on the processing

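The number of clock genes called for alleles lost in the cerebellum, 1, was 3 with DESeq2 (*Per2*, *Per3* and *Nr1d2*), 2 without the sex term (*Per2* and *Per3*), 0 in animals Sample_1120 to Sample_1219 alone and 0 with the covariate for this range, and it ran from 0 (without Sample_1129 or Sample_1385) to 4 (without Sample_1160) with each animal left out. In the hippocampus the number, 2, was 1 with all 18 libraries, 0 within the range of numbers and 0 with the covariate, and ran from 1 to 3 with each animal left out. The number with a tissue difference ran from 5 to 8. The number correlated between tissues, 4, was 1 in animals outside the range of numbers, 2 without the 2 farthest animals, and ran from 2 to 6 with each left out. The replicate block left the interaction at 0 members and called a tissue difference for 8 in place of 6. The counts over all genes moved by over 1.5 times from 1916 to 277 (range alone) and 308 (covariate) in the cerebellum. In the hippocampus they moved from 636 to 1056 (DESeq2), 246 (18 libraries), 27 (range alone) and 68 (covariate). For the interaction they moved from 203 to 337 (DESeq2), 10 (covariate) and 338 (replicate block), and for sex from 7 to 17 in the cerebellum and from 130 to 625 (DESeq2) and 6 (18 libraries) in the hippocampus. Fits against *Arntl* moved from 0 to 2 and 3 (DESeq2), 1 (no filter, cerebellar genes) and 575 (hippocampal genes without Sample_1433). With 1 animal left out, the count over all genes also moved by over 1.5 times in the cerebellum (1161 without Sample_1129, 1013 without Sample_1190, 1234 without Sample_1371, 935 without Sample_1385) and the hippocampus (365 without Sample_1190, 286 without Sample_1371, 305 without Sample_1379). For the interaction it did so without 6 animals (85 without Sample_1190 to 363 without Sample_1160), and for hippocampal sex without 11 of 17 (30 without Sample_1192 to 212 without Sample_1371). Of 500 values of single clock genes for alleles lost under the alternatives, 13 had the other sign, all for genes called in neither fit. The range alone leaves fewer animals, while the covariate fit keeps them all. The causes of these moves were not tested.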
